A study of Mus musculus with 2 samples.

Results

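The clustered histone genes are the intron-poor genes for H1, H2A, H2B, H3 and H4 that sit in dense clusters and whose mRNAs are made in bulk while a cell copies its DNA. They were taken as every protein-coding gene of GENCODE M21 whose symbol starts with Hist1h, Hist2h, Hist3h or Hist4 and that has a row in the gene tables of both samples. The rule found 64 genes among 69691 table entries, of which 21474 are protein-coding. Another 3 genes that meet the symbol rule, Hist2h2bb, Hist1h2bm and Hist1h2bh, are not analysed here. By class there were 6 H1, 18 H2a, 15 H2b, 12 H3 and 13 H4 genes, and by place 52 lay in the Hist1 cluster on chromosome 13, 9 in the Hist2 cluster on chromosome 3, 2 in the Hist3 cluster on chromosome 11 and 1, Hist4h4, on chromosome 6.

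The samples were the forebrains of 2 newborn B6NCrl mice (postnatal day 0), pup 1 and pup 3, with no treatment and no second group. Total RNA longer than 200 nt was used, 10 ng per library, from 1 forebrain each, and the labels mark sex as not collected. Both samples carry the same donor label although the titles name different pups, so that spread between them may be animal or library spread. The libraries held 40066386 and 40431595 expected counts, of which the histone genes took 13893 (0.0347%) and 22656 (0.0560%). The tissue label was checked with 7 forebrain genes, all of which were at 1 TPM (the deposited level per length, scaled to the same total in each library) or more in both pups, from Emx2 with a mean of 6.85 TPM to Neurod6 with 267.8, both transcription factors of the forebrain. With 1 group of 2 animals no test of a condition exists, and an exact sign-flip test of 2 values cannot go below a p of 0.5. All comparisons are therefore descriptions, given as the value in each pup.

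Most mRNAs end in a poly(A) tail, but the mRNA of a replication-dependent histone gene normally ends just after a short stem-loop in its 3′ end. The stem-loop binding protein SLBP and the U7 small nuclear RNA direct the cut that makes this end, and the mRNA is destroyed once DNA synthesis stops. Some clustered genes can also use a poly(A) signal further downstream, which gives a message that lasts in cells that no longer divide. A library made from total RNA can hold both forms, whereas selection on poly(A) would lose the first. Which of these forms the present libraries caught, and how well, was not tested.

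The stem-loop was searched in the M21 transcripts on the transcribed strand as GG, any 2 bases, CTTTT, any base, AG, any 2 bases and CC. It was present in at least 1 transcript of 42 of the 64 genes. Of the other protein-coding transcripts, a share of transcripts and not of genes, 0.0885% held it (52 of 58725). The models of 10 of the genes hold the coding part only, so a stem-loop after it could not be found in them. Some other models without a stem-loop are nearly as short. Hist1h2af has 399 nt and Hist1h2ah 405 nt, against 393 nt for the coding part of Hist1h2ai. The sequences of the members on which the levels turn are shown, with 12 bases of transcript before the stem-loop in lower case and the stem-loop in capitals.
Hist1h2ap: aaaaaaaaaaaaGGCTCTTTTCAGAGCC
Hist1h2ao: aaaaaaaaaaaaGGCTCTTTTCAGAGCC
Hist1h2ae: aaaaaaaacaaaGGCTCTTTTCAGAGCC
Hist3h2a: acagacaccaaaGGCTCTTTTCAGAGCC
Hist3h2ba: ccccaacccaaaGGCTCTTTTCAGAGCC
Hist1h1e: caacaacccaaaGGCTCTTTTCAGAGCC
Hist1h4d: ccaaaaaccaaaGGCCCTTTTCAGGGCC
Hist1h4c: ctgtcaacaaaaGGCCCTTTTCAGGGCC
Hist2h4: cccatccctaacGGCCCTTTTTAGGGCC

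The stem sequence set the H4 genes apart but did not part the other classes from each other. The form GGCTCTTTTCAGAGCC was in 24 of the 42 genes, from H1, H2a, H2b and H3, and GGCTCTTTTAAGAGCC in another 6. A form with GGCCC in place of GGCTC was found in 9 genes (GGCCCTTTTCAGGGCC in 7 and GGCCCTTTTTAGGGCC in 2), and all of them were H4 genes. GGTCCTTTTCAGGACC was found in 2 genes, again H4, and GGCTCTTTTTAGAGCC in 1. In the transcripts of Hist1h2ap and Hist1h2ao a run of 12 A lies directly before the stem-loop. Among the other genes with a single transcript, of the same length in the deposited tables and in M21, the longest run of A was 6. Longer models of other members hold longer runs, up to 15 in Hist1h2ac, placed after the stem-loop, and 5.31% of all protein-coding transcripts hold a run of 12 or more.

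Levels were low for most of the genes. At 1 TPM or more in both pups were 32 of 64 genes, against 60.7% of protein-coding genes. Their median was 1.03 TPM in pup 1 and 1.55 in pup 3, and the median of the detected ones was 4.26, against 17.0 for detected protein-coding genes. At 0 in both pups were 7 genes, and another 9 were at 0 in 1 pup. For the 7, the 3 counts that a count of 0 allows correspond to between 0.0620 and 0.566 TPM, which covers counting error only. Where sequence is shared with another gene, the deposited upper limits were higher, up to 2.70 TPM for Hist1h4m in pup 3 and 1.27 for Hist1h4k in pup 1. In a bulk forebrain, fewer cells making these mRNAs and less of them per cell cannot be told apart.

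A few genes held nearly all of the signal. The summed level of the 64 genes was 1073 TPM in pup 1 and 1721 in pup 3, and the 10 highest genes held 90.7% and 93.5% of it. Hist1h2ap, an H2A gene of the Hist1 cluster (ENSMUSG00000094777.2, chr13:21833026-21833507 on the minus strand, mm10 with M21 coordinates, 1 exon), alone stood at 587.8 TPM in pup 1 and 1090 in pup 3. These are 54.8% and 63.3% of the summed level, and its mean ranked 117 among all protein-coding genes. The other 63 genes summed to 484.9 and 631.4 TPM. Along chromosome 13 the Hist1 cluster falls into blocks of 17, 5 and 30 of the genes, parted by gaps of 197.6 kb and 1487 kb. The first block, which holds Hist1h2ap, summed to 626.9 TPM in pup 1 and 1143 in pup 3 with 6 of 17 genes detected. The second block summed to 12.7 and 16.9 with 4 of 5 detected, and the third to 217.2 and 310.9 with 14 of 30 detected. Genes at 1 TPM or more were thus spread over all blocks and stood beside others at 0.

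**Figure D1:**
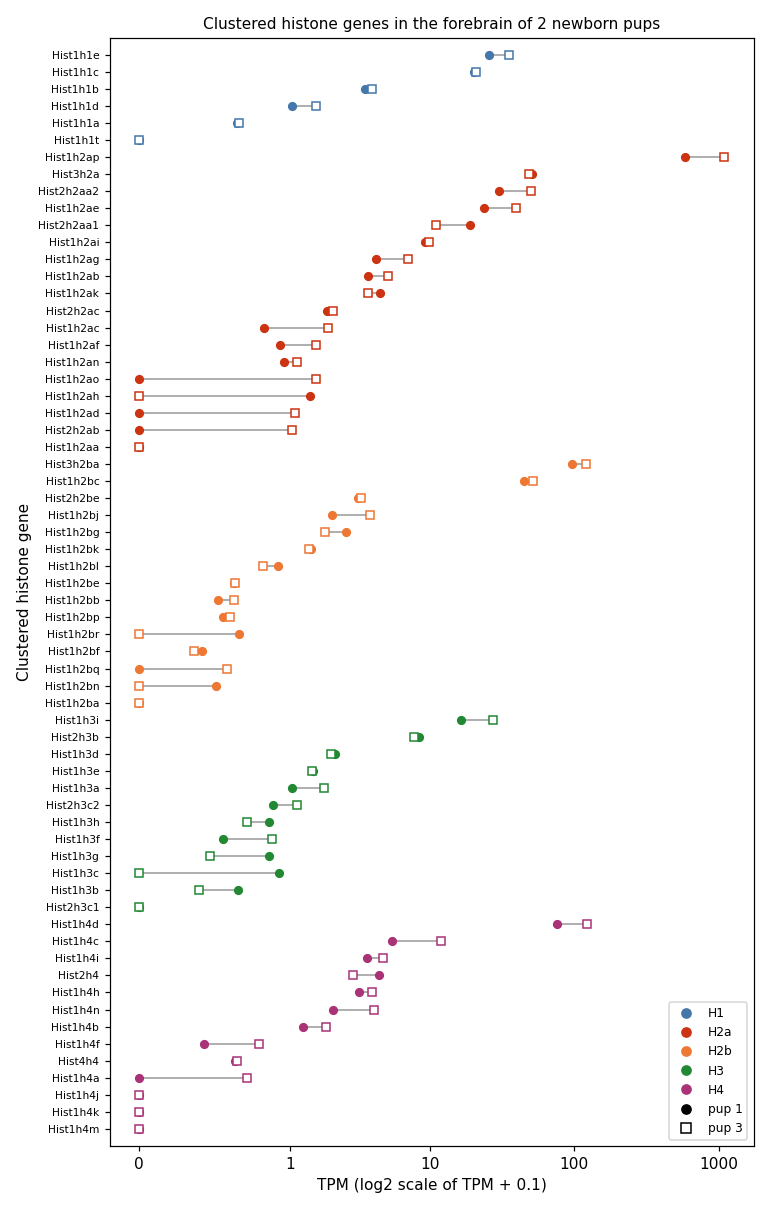
TPM of each of the 64 clustered histone genes in pup 1 (filled circles) and pup 3 (open squares), on a log2 scale of TPM + 0.1, ordered by class and by mean level, with a line joining the pups. Hist1h2ap, at 587.8 and 1090 TPM, stands apart from every other gene in both pups, and each class runs from its leading genes down to at least 1 gene at 0 in both.

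The linker histones, H1, bind DNA between nucleosomes and number 6 genes. Hist1h1e was highest by TPM, at 25.9 in pup 1 and 35.5 in pup 3. That TPM rests on a deposited transcript of 748 nt, whereas its M21 model has 1930 nt. Hist1h1c followed at 20.2 and 21.1, from a transcript of 1560 nt that runs past its stem-loop. Its expected counts, 734.9 and 867.7, were above the 417.4 and 648.0 of Hist1h1e, so the order by TPM depends on the lengths used. Hist1h1e and Hist1h1c were ahead of the other 4 genes of the class in both pups. Hist1h1t, which codes for the testis linker histone, was at 0 in both.

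The H2a genes code for core histone H2A and carried 739.4 TPM in pup 1 and 1276 in pup 3, but only 151.7 and 185.9 without Hist1h2ap. Below Hist1h2ap came Hist3h2a, at 51.3 and 48.9 TPM. Hist2h2aa2 was at 30.4 and 50.3, and its neighbour copy Hist2h2aa1 at 19.0 and 11.1, the opposite order between the pups. Hist1h2ae stood at 23.8 and 39.8 TPM, on a deposited transcript of 460 nt against 704 nt in M21. Hist1h2ai, at 9.23 and 9.83, and Hist1h2ag, at 4.18 and 7.01, were the last H2a genes with a mean of 5 TPM or more. Hist1h2aa, known as a germline H2A gene, was at 0 in both pups.

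The H2b genes, for the partner of H2A in the nucleosome, were led by Hist3h2ba (ENSMUSG00000056895.4, chr11:58948920-58949533, plus strand). It reached 96.3 TPM in pup 1 and 121.6 in pup 3. Hist1h2bc was next at 44.8 and 51.9, on a deposited transcript of 736 nt against 1156 nt in M21. Apart from those, the class was low: only 6 of 15 genes were detected and the median over the class was 0.355 TPM. Hist2h2be, on a transcript of 2620 nt, was at 3.14 and 3.28, and Hist1h2ba, the testis H2B gene, was at 0 in both pups.

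For H3 and H4, which form the tetramer at the centre of the nucleosome, the classes differed in level. The 12 H3 genes summed to 33.1 TPM in pup 1 and 43.2 in pup 3, of which Hist1h3i held 16.5 and 27.5. Hist2h3b was the only other one above a mean of 5, at 8.38 and 7.76, and Hist2h3c1 was at 0 in both. Hist1h3i had been put on a list of germline-restricted members with no firm basis, and its level placed it first in its class. The 13 H4 genes summed to 96.3 and 154.0 TPM.

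Within H4, Hist1h4d (ENSMUSG00000061482.6, chromosome 13, plus strand) made up most of the class, at 75.8 TPM in pup 1 and 123.2 in pup 3. Its TPM rests on a transcript of 393 nt in the tables, whereas its M21 model, from which the stem-loop was read, has 1138 nt. Hist1h4c was at 5.41 and 11.99, on a deposited transcript of 395 nt against 820 nt in M21. Hist2h4, with a transcript of 1630 nt, was at 4.39 and 2.90. The only gene outside the 3 clusters, Hist4h4, was at 0.36 and 0.37. Hist1h4j, Hist1h4k and Hist1h4m were at 0 in both pups. The nucleosome holds the core histones in equal amounts, but the summed levels of their clustered genes were unequal: in both pups H3 was lowest, H4 was next, and H2b was close to H2a without Hist1h2ap.

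The order of the leading genes can be read with the width of the deposited intervals, which come from the quantification of each library and cover neither animal nor library spread. Hist1h2ap was above every other gene in both pups with no overlap of intervals (554.9 to 587.3 in pup 1, 1044 to 1085 in pup 3). These intervals lie around the posterior means, 571.2 and 1064 TPM, and its TPM of 587.8 and 1090 is just above their upper limits. Hist3h2ba and Hist1h4d cannot be placed in order, since Hist3h2ba was higher in pup 1 and Hist1h4d was higher in pup 3. Likewise Hist3h2a was above Hist1h2bc in pup 1 and below it in pup 3. Hist1h1e and Hist1h2ae also changed places between the pups.

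Many of these genes share most of their sequence with another gene, which limits how reads can be assigned. Every 100-nt window of each transcript was compared with all other M21 transcripts on both strands. In Hist1h2ap 7.83% of windows were found in no other gene, and 353 of its 383 windows also occur in Hist1h2ao. Hist1h2ao was at 0 TPM in pup 1 and 1.55 in pup 3, so that both together had 587.8 and 1091 TPM, and their split is uncertain. For Hist2h2aa1, Hist2h2aa2, Hist2h3b and Hist2h3c1 no window was unique. Hist2h2aa1 and Hist2h2aa2 summed to 49.4 TPM in pup 1 and 61.4 in pup 3, and the sum lay closer between the pups than either gene did. The noncoding genes annotated over the Hist2 cluster were low, Gm20633 at 0.69 and 0.43 TPM and Gm20632 at 2.14 and 1.11. The protein-coding neighbour that overlaps Hist3h2a, Trim17, was at 0.59 and 0.55 TPM, but 610 of the 2047 windows of Hist3h2a occur in it.

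**Figure D2:**
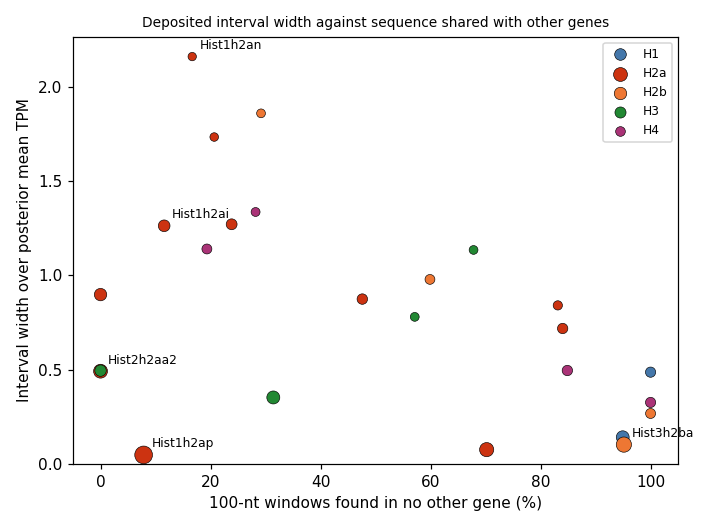
Width of the deposited TPM interval divided by the posterior mean TPM (y axis) against the share of 100-nt windows found in no other gene (x axis), for members with a mean of 1 TPM or more and the same transcript length in the tables and in M21; larger points have higher TPM. Hist1h2an, with 16.7% unique windows and a mean of 1.01 TPM, had the widest interval at 2.16 times its mean, and Hist1h2ap, with 7.83% unique windows, the narrowest at 0.0476.

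The relative widths differed widely among members, whose levels differed too. Hist1h2ai, at a mean of 9.53 TPM with 11.6% unique windows, had an interval 1.26 times as wide as its posterior mean. Hist1h1c, at 20.7 TPM with 94.9% unique windows, had 0.141. Among the members plotted Hist1h2ap combined few unique windows with the narrowest relative interval, 0.0476, and the highest level.

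The shape of the transcript models differed among the members, and the median level differed between the shapes. Of the genes, 42 had 1 transcript of the same length in the tables and in M21. The models of 10 of these hold the coding part only, with a median of 0.638 TPM and 3 of 10 detected. Another 16 end within 60 nt of the stem-loop, with a median of 1.75 TPM and 11 of 16 detected. In 9 the model runs more than 60 nt past the stem-loop, with a median of 3.65 TPM and 6 of 9 detected. In 7 no stem-loop was found in the model (median 1.20, 3 of 7 detected), and some of those models are short. Levels within the shapes overlapped: models that end within 60 nt ran from 0 to 838.7 TPM and those that run past from 0 to 108.9. These 2 shapes also differed in unique sequence, with a median of 28.7% and 81.0% of windows. The part of this in the levels was not tested. The 60-nt limit was chosen after the data were seen.

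A poly(A) signal, AATAAA or ATTAAA on the transcribed strand in the last 50 nt, was present in 9 of the 42 models, against 50.2% of protein-coding transcripts. The median was 3.65 TPM with the signal and 1.40 without. The models with the signal are mostly those that run more than 60 nt past the stem-loop, and Hist2h4 gives the median of both sets. These medians are therefore not separate results. The models that hold the coding part only are all among those without the signal. Hist3h2ba, Hist3h2a and Hist2h4 are among the genes with both a stem-loop and a downstream signal, 27, 34 and 33 nt before the end of the transcript. The models with the signal also had more unique sequence, a median of 84.9% of windows against 35.7%, and the part of this in the levels was not tested. Hist1h2ap has no signal: its model ends 3 nt after the stem-loop.

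Many H2a and H2b genes lie head to head and share the stretch between them as a promoter. There were 12 such pairs with starts 175 to 305 nt apart, and each of the 12 joins an H2a to an H2b gene. The H2a member was higher in both pups in 6 pairs, and both members reached a mean of 1 TPM in 4. The levels differed most between Hist1h2ap and Hist1h2br, whose starts lie 235 nt apart: Hist1h2br had 0.39 TPM in pup 1 and 0 in pup 3. Hist1h2br shares most of its windows with Hist1h2bq, and both together had 0.39 and 0.30 TPM. Hist1h2ap shares 353 of its 383 windows with Hist1h2ao, which faces Hist1h2bq. How the levels divide between these near-copied pairs is therefore uncertain. Hist1h2ae, at 23.8 and 39.8, faced Hist1h2bg, at 2.59 and 1.81. The order was the opposite for Hist1h2bc and Hist1h2ac, where the H2b gene had 44.8 and 51.9 TPM and the H2a gene 0.63 and 1.91. Genes that face each other were therefore often at unlike levels, and the direction was not fixed by class.

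**Figure D3:**
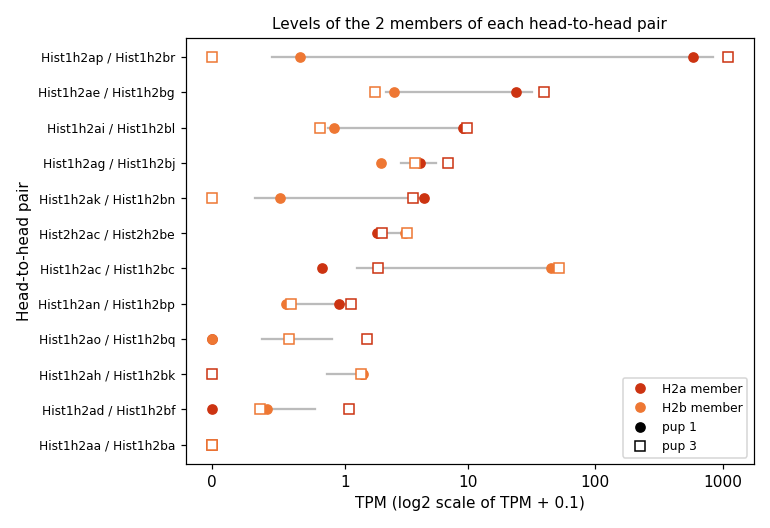
TPM of the H2a (red) and H2b (orange) member of each of the 12 head-to-head pairs in pup 1 (filled circles) and pup 3 (open squares), on a log2 scale of TPM + 0.1; grey lines join the means of both members. In the top row Hist1h2ap exceeds Hist1h2br in both pups, and for Hist1h2ac and Hist1h2bc the H2b member is the higher one.

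Promoter sequences from RefSeq (GRCm38.p6), 250 bases before to 50 after the start, were matched for 59 of the genes, in 60 windows. They were searched on both strands for TATAAA (the TATA box), CCAAT (the CCAAT box), ATTTGCAT (the octamer known from H2B promoters) and GGTCCG (part of a known H4-specific element). The last was chosen after the sequences had been seen. The windows of the highest H2a and of the highest H4 gene are shown because their motif content differs, with matches to any of these motifs on either strand in capitals.
Hist1h2ap, chr13:21833426-21833725, minus strand: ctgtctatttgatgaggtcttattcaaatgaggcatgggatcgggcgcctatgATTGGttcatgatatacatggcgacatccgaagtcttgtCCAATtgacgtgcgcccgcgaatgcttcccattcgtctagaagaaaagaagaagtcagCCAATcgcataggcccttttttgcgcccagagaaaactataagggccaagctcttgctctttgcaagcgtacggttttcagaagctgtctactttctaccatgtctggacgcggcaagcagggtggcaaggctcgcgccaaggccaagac
Hist1h4d, chr13:23581318-23581617, plus strand: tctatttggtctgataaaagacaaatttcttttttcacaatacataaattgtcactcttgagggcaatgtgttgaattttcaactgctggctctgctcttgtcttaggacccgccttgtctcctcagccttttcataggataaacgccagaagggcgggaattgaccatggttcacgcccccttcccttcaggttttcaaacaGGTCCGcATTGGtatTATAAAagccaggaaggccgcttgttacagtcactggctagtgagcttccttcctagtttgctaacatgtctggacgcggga

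The Hist1h2ap window holds 3 CCAAT boxes, counting both strands, and no TATAAA. The first 233 nt of it as printed are also part of the window of Hist1h2br, the facing gene on the other strand. With the window of Hist1h2ao, which lies elsewhere on chromosome 13, it shares an unbroken run of 200 nt. The run goes from the first base of the Hist1h2ap window to the last base of the Hist1h2ao window. Its length is thus set by the window edges, and bases beyond them were not compared. In the Hist1h4d window GGTCCG, an inverted CCAAT and TATAAA follow each other within a few bases. Across the genes, CCAAT was present in all 48 windows of H1, H2a, H2b and H3 genes and in 3 of 12 H4 windows, against 37.4% of 32851 promoter windows of all genes. GGTCCG showed the opposite split, in 11 of 12 H4 windows and 1 of the other 48, against 8.25% of all. ATTTGCAT was found in 7 of 18 H2a and 5 of 14 H2b windows and in none of H1, H3 or H4, against 1.74% of all. Windows of facing H2a and H2b genes can overlap, so a site may be counted in both classes and these windows are not all separate promoters. TATAAA was in 35 of 60 windows (58.3%), against 13.6% of all. CCAAT and GGTCCG thus split the H4 windows from the rest, with 3 H4 windows holding CCAAT and 1 H3 window holding GGTCCG.

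The pups were then set side by side. Of the 35 genes with a mean of 1 TPM or more, 26 had a higher TPM in pup 3, while 19.5% of the 14985 genes of all kinds at that level did. This background depends on the scaling: with TMM-scaled counts 31 of the 35 were above 0 against 50.9% of all genes, and with DESeq2 31 of 35 against 51.7%. The median log2 ratio of pup 3 over pup 1, computed on TPM + 0.1, was 0.34 for the histone genes and -0.27 for all genes. Without Hist1h2ap it was 0.32. By class the medians were 0.31 for H1, 0.46 for H2a, 0.14 for H2b, -0.02 for H3 and 0.52 for H4.

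On the TPM scale few of these differences were past a fold of 2. With a 2-fold limit and deposited intervals that do not overlap, 1 gene was higher in pup 3 (background 0.127%) and 0 were lower (background 3.85%). The 1 gene was Hist1h4c, at 5.41 TPM in pup 1 and 11.99 in pup 3, a log2 ratio of 1.13. With TMM-scaled counts 4 genes were past the rule and higher in pup 3 (background 0.280%), among them Hist1h2ap at a log2 ratio of 1.18. With DESeq2 5 were (background 0.287%). Under either scaling 0 were lower (background 1.15% with TMM and 1.13% with DESeq2). By intervals alone, 9 genes were higher in pup 3 (background 5.66%) and 1 was lower (background 48.0%). The 9 were Hist1h4c, Hist1h2ap, Hist1h2ae, Hist1h3i, Hist2h2aa2, Hist1h4d, Hist1h1e, Hist3h2ba and Hist1h2bc, at log2 ratios from 1.13 down to 0.21. The lower one was Hist2h4 at -0.58. Hist2h2aa2 shares all its windows with its copy Hist2h2aa1, which had a lower TPM in pup 3. Both together had 49.4 TPM in pup 1 and 61.4 in pup 3, and their split is uncertain. Hist1h2ap had a log2 ratio of 0.89, and Hist3h2a one of -0.07.

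The ratio moved with transcript length across all genes. Protein-coding genes of 300 to 800 nt had a median log2 ratio of 0.15 (642 genes) and those over 2000 nt one of -0.37 (8557 genes). The 30 histone genes of 300 to 800 nt had a median of 0.46, and the 4 over 1000 nt (Hist1h1c, Hist2h2be, Hist2h4 and Hist3h2a) had one of -0.00428. The 5 red blood cell genes with a mean of 1 TPM or more were all higher in pup 3, against 19.5% of all genes. Their median log2 ratio was 0.44. The alpha-globin gene Hba-a2, the highest of them, was at 1049 TPM in pup 1 and 1422 in pup 3. The part of length and of blood in the histone ratio was not tested.

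**Figure D4:**
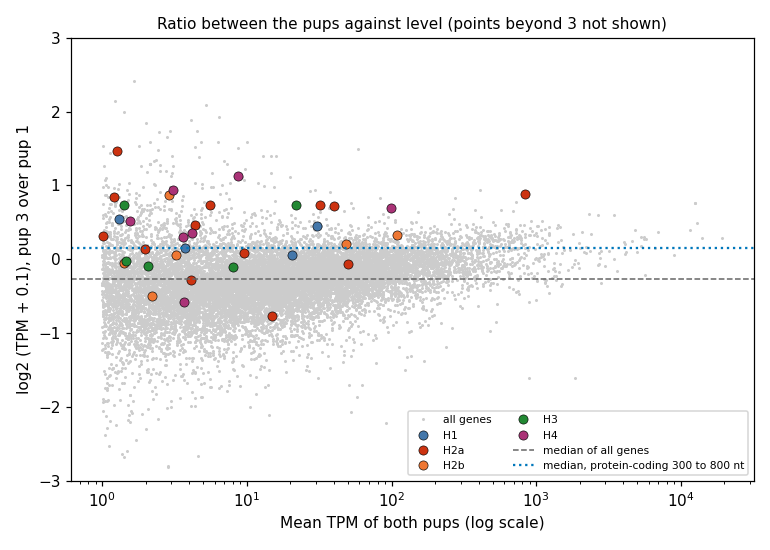
Log2 ratio of TPM + 0.1 in pup 3 over pup 1 (y axis) against the mean TPM of both pups (log x axis) for all genes with a mean of 1 TPM or more (grey) and the 35 histone genes at that level (coloured by class). The histone genes lie mostly above the median of all genes (dashed, -0.27), and short protein-coding genes have a median of 0.15 (dotted).

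The listed genes for replication-independent histones and histone variants, whose mRNAs are mostly polyadenylated, were at higher levels. All 12 of the list were detected, with a median of 166.0 TPM and a sum of 6087 TPM in pup 1 and 6717 in pup 3. H3f3a, for histone H3.3, stood at 2097 and 2355 TPM. H3f3b, which codes for the same protein, stood at 2072 and 2225, and H2afz, for H2A.Z, at 634.9 and 749.1. Cenpa, the centromeric H3 and the lowest of the list, was at 28.8 and 31.7 TPM, about the level of Hist1h1e. Their median log2 ratio was 0.12, and 9 of 12 were higher in pup 3, against 19.5% of all genes.

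The factors that make and handle histone mRNA were present at moderate levels. Of 12 listed, 11 matched a row and 9 were detected. The symbol as entered, Symk, matched none, so that factor was not looked at. The median over the 11 was 21.01 TPM. Of the 9, 0 were higher in pup 3, against 19.5% of all genes. Their median log2 ratio was -0.23, near the -0.27 of all genes. Slbp, the stem-loop binding protein, was at 83.8 and 73.3 TPM, Cpsf3, the endonuclease, at 61.0 and 51.6, and Lsm10, of the U7 particle, at 51.7 and 45.5. The U7 RNA gene, Rnu7, was listed at 0 in both pups, where RNA under 200 nt had been removed. All 12 histone chaperones were detected, from Npm1 at 346.9 and 366.9 TPM, Nap1l1 at 136.7 and 112.5 and Ssrp1 at 133.2 and 113.2 down to Asf1b at 4.40 and 3.87, with a median log2 ratio of -0.22.

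The cell cycle genes had lower median ratios between the pups than the histone genes, and that difference was not tested. On the same TPM scale all genes had a median log2 ratio of -0.27, with 19.5% higher in pup 3. The S-phase genes lay above that median, and the genes of G2 and mitosis lay near it. The 15 S-phase genes had a median of 12.1 TPM and a median log2 ratio of -0.00349, with 7 of 15 higher in pup 3. Pcna, the replication clamp, was at 107.2 and 113.0 TPM, the helicase subunit Mcm7 at 56.0 and 57.9, the nucleotide-making enzyme Rrm2 at 43.6 and 42.1, and the licensing factor Cdc6, the lowest, at 1.13 and 1.39. The 12 genes of G2 and mitosis had a median log2 ratio of -0.20, with 3 of 12 higher in pup 3. Among them were Cdk1 at 41.1 and 45.6, Ube2c at 33.3 and 25.6, Ccnb1 at 19.8 and 21.8, and Mki67, the lowest, at 2.82 and 1.98.

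Marker genes of the cell types in the tissue were measured beside these. Within the forebrain list the pups differed in both directions, from Emx2 at 9.76 and 3.94 TPM and Dlx1 at 120.5 and 87.0 to Neurod6 at 206.2 and 329.5, and the part of this in the histone ratio was not tested. The 6 genes of dividing neural progenitors had a median of 11.9 TPM and a median log2 ratio of -0.34, led by Sox2 at 24.4 and 17.4 TPM. The 5 genes of postmitotic neurons had a median of 207.1 TPM and a log2 ratio of -0.55, with Tubb3 at 1836 and 1700. These medians are to be read against -0.27 for all genes on the same TPM scale. The 4 testis genes, Prm1, Prm2, Tnp1 and Tnp2, were at 0.22 TPM or below in both pups, as were the germline histone genes Hist1h1t, Hist1h2aa and Hist1h2ba, each at 0.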

How the data were processed

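RNA was extracted with mirVana chemistry and ERCC spike-ins were added, per the labels' protocols. The tables use mm10 with the GENCODE M4 annotation, per the notes deposited with the files. Aligner, quantifier and strand setting are named in neither the labels nor the file headers. The authors deposited for each gene an expected count (an estimated count, not whole), TPM, a TPM averaged over the posterior, and lower and upper TPM limits of unstated level; for each transcript the authors also deposited its share of the gene as a percent, which enters no value here. Length minus effective length was 99 nt in 99.99% of genes.

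Annotation, transcript sequences and coordinates came from GENCODE M21, matched by gene number without version, and promoters from RefSeq. TPM served for levels and ratios, with a pseudocount of 0.1 and detection at 1 TPM or more in both pups. Rounded expected counts were scaled with edgeR 4.0.16 (TMM) and DESeq2 1.42.0 as alternatives only, with no count test. Named genes were those of a mean of 5 TPM or more, the lowest of each class, those past the ratio rule, listed germline genes, detected genes with transcripts over 1000 nt, and the 3 highest and the lowest gene of each comparison list; facing, overlapping and near-identical genes, Hist1h2an and cell type markers were added after values were seen. Members and lists were chosen with earlier results of these data known. Some listed marker genes are not reported here.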

Additional observations from a re-analysis of the deposited data

How the results depend on the processing

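The count of detected genes was 32, 14 at 5 TPM or more, and 33 to 39 with 1 pup left out. The summed level, 1397 TPM on average, was 558.2 without Hist1h2ap (an alternative chosen after the data were seen) and ran from 1073 to 1721 with 1 pup left out. The median was 4.09 TPM over genes with a mean of 1 or more, against 1.28 over all 64, and ran from 1.03 to 1.55 with 1 pup left out. The share held by the 10 highest genes, 92.1%, was 83.7% without Hist1h2ap and ran from 90.7% to 93.5% with 1 pup left out.

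The median log2 ratio of 0.34 was 0.62 on TMM-scaled and 0.62 on DESeq2-scaled counts, where the median of all genes was 0.01 in each. The difference between both medians was 0.60 on TPM and 0.61 under either scaling. The ratio was 0.46 over genes with a mean of 5 TPM or more and 0.14 over all members. On TPM 1 gene was past the 2-fold rule and higher in pup 3 (0.127% of all genes). With TMM 4 were (Hist1h4c, Hist1h2ap, Hist1h2ae and Hist2h2aa2, against 0.280% of all genes) and with DESeq2 5 (0.287%). Hist2h2aa2 shares all its windows with its copy, so its own call is uncertain. A 1.5-fold limit gave 6 (0.420%), and 2 passed without the interval condition (0.627%). In each of these 0 were lower. Of all genes, 3.85% were lower on TPM, 1.15% with TMM, 1.13% with DESeq2, 16.5% at 1.5-fold and 4.82% without intervals. The cause of these moves was not tested. No paired analysis was possible because there is only 1 group. At this depth 3 counts are worth up to 0.566 TPM, and in members that share sequence the deposited upper limit at a value of 0 reached 5.09 TPM (Hist1h2ao, pup 1).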
